A study of Mus musculus with 24 samples.

Results

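The 8 genes described here, Hnf4a, Foxa1, Foxa2, Foxa3, Cebpa, Cebpb, Onecut1 and Prox1, encode transcription factors that set up and maintain hepatocyte identity. They were chosen by name, and all 8 were among the 34436 gene symbols of the count table and passed the filter on low counts. The members and the gene lists used below were chosen with earlier results of these data known. Their mRNA was measured by RNA sequencing of whole liver from wild-type C57BL/6 mice that were 8 to 10 weeks old when an 8-week diet began. The diets were high sucrose with 2% cholesterol (HS_Chol, 3 libraries), high sucrose (HS, 5 libraries), 2% cholesterol with cholic acid (Chol_CA, 4 libraries), cholic acid alone (CA, 4 libraries) and normal chow (NC, 4 libraries). Cholic acid is a primary bile acid that promotes cholesterol uptake from the gut and activates the bile acid receptor FXR. The labels number the livers but do not say more about whether each is a separate animal, so p-values measure the spread between these samples. Libraries are named by diet and by the number of their column in the table.

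Hepatocyte identity rests on a network of factors that bind each other's promoters and the same liver enhancers. FOXA proteins are pioneer factors that open chromatin, HNF4A is a nuclear receptor that drives a large share of liver genes for lipid transport, clotting and bile acid synthesis, and the C/EBP proteins are leucine zipper factors for metabolic and acute phase genes. ONECUT1, also called HNF6, and PROX1 are homeodomain proteins that act in liver development and in the adult hepatocyte.

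Promoters of some members are shown from RefSeq (GRCm38.p6), from 250 bases before the start of the transcript to 50 after it. All 8 members had a promoter there, with 12 promoters in all. The first 2 belong to genes that were lower in CA and the next to the most variable member. The last 2, of Foxa2 and Hnf4a, hold the core sequence bound by ONECUT1. Neither gene passed in the test of any difference among the diets (adjusted p = 0.300 and 0.581 in edgeR). Capitals mark motifs found on either strand.
Cebpa, chr7:35119043-35119342, plus strand: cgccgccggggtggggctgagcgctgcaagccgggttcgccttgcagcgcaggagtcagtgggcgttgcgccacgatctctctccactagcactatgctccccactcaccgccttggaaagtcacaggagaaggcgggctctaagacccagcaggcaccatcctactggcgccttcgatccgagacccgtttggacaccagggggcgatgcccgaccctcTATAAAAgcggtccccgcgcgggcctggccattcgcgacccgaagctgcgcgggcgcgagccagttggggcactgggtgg
Foxa3, chr7:19023490-19023789, minus strand: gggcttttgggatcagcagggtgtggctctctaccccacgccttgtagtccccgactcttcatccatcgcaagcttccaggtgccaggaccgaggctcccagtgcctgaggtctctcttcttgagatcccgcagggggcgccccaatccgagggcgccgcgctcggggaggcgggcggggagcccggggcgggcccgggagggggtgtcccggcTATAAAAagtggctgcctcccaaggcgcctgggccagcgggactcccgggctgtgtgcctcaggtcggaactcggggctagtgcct
Onecut1, chr9:74861671-74861970, plus strand: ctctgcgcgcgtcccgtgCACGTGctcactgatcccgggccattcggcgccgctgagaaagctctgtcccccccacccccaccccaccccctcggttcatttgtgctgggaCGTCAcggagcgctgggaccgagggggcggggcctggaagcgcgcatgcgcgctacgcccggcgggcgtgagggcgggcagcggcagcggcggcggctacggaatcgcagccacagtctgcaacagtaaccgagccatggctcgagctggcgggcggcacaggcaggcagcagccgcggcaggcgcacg
Foxa2, chr2:148046920-148047219, minus strand: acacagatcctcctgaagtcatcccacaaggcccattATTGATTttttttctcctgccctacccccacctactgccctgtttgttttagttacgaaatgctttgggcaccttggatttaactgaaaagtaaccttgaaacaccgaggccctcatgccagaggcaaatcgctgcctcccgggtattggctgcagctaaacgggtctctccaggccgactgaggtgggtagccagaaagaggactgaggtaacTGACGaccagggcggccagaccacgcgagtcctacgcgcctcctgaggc
Hnf4a, chr2:163506607-163506906, plus strand: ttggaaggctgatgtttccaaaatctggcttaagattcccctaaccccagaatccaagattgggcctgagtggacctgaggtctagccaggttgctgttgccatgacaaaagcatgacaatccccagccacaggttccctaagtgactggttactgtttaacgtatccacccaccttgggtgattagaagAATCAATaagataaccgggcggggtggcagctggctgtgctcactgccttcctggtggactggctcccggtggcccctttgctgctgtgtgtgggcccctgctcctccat

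The Cebpa and Foxa3 promoters each held the motif TATAAAA, where the TATA-binding protein sits, at bases -30 to -24 and -36 to -30 counted from the start; 5.48% of the 32851 promoters of the same length held it on either strand. The HNF6 core ATTGATT, present in 2.86% of promoters, lay at bases -213 to -207 of the Foxa2 promoter shown. On the other strand, it lay at bases -60 to -54 of the Hnf4a promoter shown. A further Hnf4a promoter, at chr2:163546905-163547204, held no match to any motif searched. Which Hnf4a promoter these livers used was not tested. Onecut1 held CACGTG, an E-box found in 7.15% of promoters, at bases -232 to -227, and TGACG, the core of a CREB site found in 20.8%, on the other strand at bases -139 to -135. Foxa2 held TGACG at bases 2 to 6 after the start. Of the promoters not shown, that of Cebpb held 3 TGACG matches, and that of Foxa1 held TGTTTAC, the forkhead core found in 3.65% of promoters. The Prox1 promoter at chr1:190170778-190171077 and the Foxa2 promoter at chr2:148045415-148045714 held TATAAAA on the other strand. Further promoters of Prox1, at chr1:190169466-190169765, and of Foxa2, at chr2:148045899-148046198, held no match. TTGCNNAA for C/EBP (10.8% of promoters) and CAAAGTCCA for HNF4 (0.475%) matched none of the 12. None of the matches overlapped another, and a match describes letters only.

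The libraries held between 6110484 and 10244277 reads. Counts are given as CPM, reads of a gene per 1000000 reads of the TMM-scaled library. The 8 defining hepatocyte markers, led by Alb, were present in every library at a summed 81554 to 90937 CPM in HS_Chol, 94331 to 108448 in HS, 55327 to 74057 in Chol_CA, 81970 to 114411 in CA and 122111 to 124511 in NC. In whole liver, fewer cells of a type and less RNA per cell cannot be told apart. The slope of a library's log2 CPM on log2 transcript length, called the length trend here, was negative in 8 libraries (HS_Chol_0, HS_0, HS_1, HS_2, Chol_CA_0, Chol_CA_1, CA_0 and NC_3) and positive in the other 12. Those 12 were 2 HS_Chol, 2 HS, 2 Chol_CA, 3 CA and 3 NC libraries, so fits on them alone rest on 2 or 3 libraries per diet. One HS sample also carries a diet label of normal chow and could not be matched to a column. HS against NC called 0 of 8 members with all libraries and without any one HS library, so this cannot show whether the label matters. The calls of Cebpa and Foxa3 in CA against HS, and of Onecut1 in Chol_CA against HS, held in all 20 fits that left out 1 library. The difference in cholesterol effects on Cebpa, described below, missed the threshold without HS_1 (edgeR adjusted p = 0.0509). For each 1000000 reads on mRNA genes of the mitochondrial heavy strand, HS_Chol libraries had 673 to 900 reads on light-strand tRNA genes and the other 17 libraries 8.95 to 83.4. Every comparison with HS_Chol below carries this difference, which cannot be told apart from the diet.

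Per kilobase of exon, the mean over the 20 libraries was highest for Hnf4a at 157 CPM per kb and Cebpa at 110.1 CPM per kb. Cebpb followed at 39.9 CPM per kb, Prox1 at 22.7, Foxa3 at 17.0, Foxa2 at 13.7, Foxa1 at 9.01 and Onecut1 at 3.31. Read counts per library ran from 3285 to 8905 for Hnf4a, from 1340 to 2747 for Cebpa, and from only 14 to 274 for Onecut1, so the Onecut1 values carry the largest counting error. Onecut1 shares 2171 of its 4113 exonic bases with Gm20649 on the same strand, for which the table had 0 reads in all 20 libraries, so reads on shared exons may be missing and its level per length is uncertain. Cebpb shares 312 of its 1504 exonic bases with Tmem189 on the opposite strand, and which strand was counted is not given in the sources used here.

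The members also differed in how steady they were. Between its highest and lowest library, Onecut1 varied 24.1-fold, Prox1 5.37-fold and Foxa1 4.02-fold, while the other 5 varied between 2.85-fold and 3.14-fold. The biological coefficient of variation between libraries of the same diet was 0.131 for Cebpa, at percentile 9.72 of all genes tested, against 0.394 for Prox1 at percentile 90.5 and 0.604 for Onecut1 at percentile 98.5. Cebpa was thus among the genes with the least spread within a diet, and Onecut1 among those with the most.

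**Figure D1:**
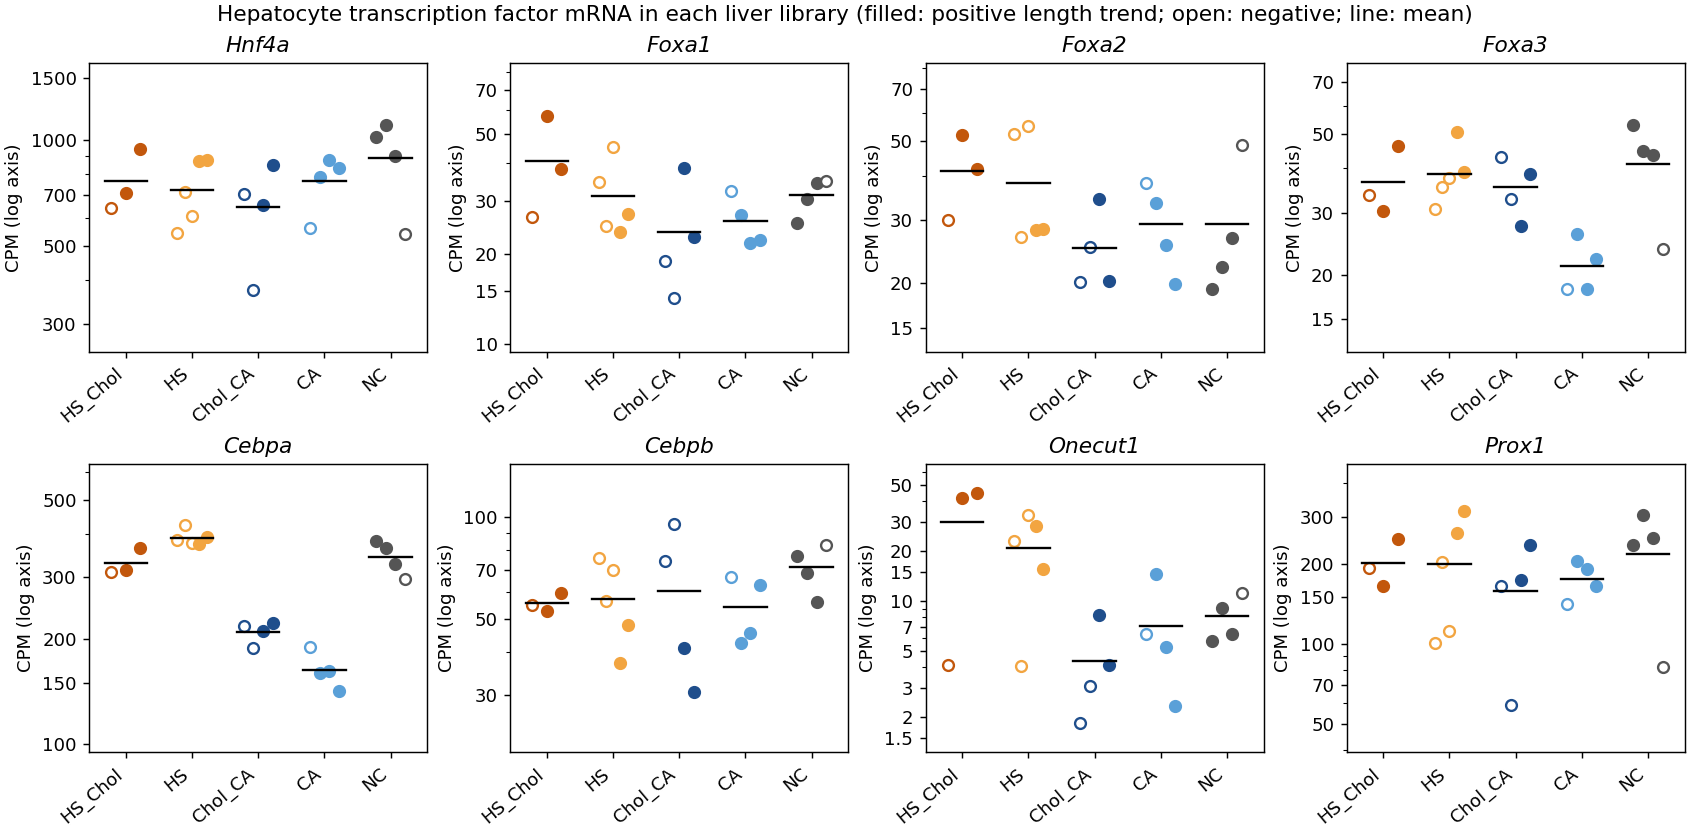
CPM of each of the 8 factors (log axis, 1 panel per gene) in the 3 HS_Chol, 5 HS, 4 Chol_CA, 4 CA and 4 NC libraries. Each point is a library, filled where its length trend was positive and open where it was negative, and the line is the mean of the diet. The Cebpa points of Chol_CA (189 to 223 CPM) and CA (142 to 189.9 CPM) all lie below those of the other diets (298 to 423 CPM).

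Whether a factor differed among the 5 diets at all was tested first, with edgeR's quasi-likelihood F test and Benjamini-Hochberg adjustment over 12595 genes. Cebpa (adjusted p = 2.52e-07), Onecut1 (adjusted p = 0.00908) and Foxa3 (adjusted p = 0.0139) passed at an adjusted p under 0.05. That is 3 of 8 members, against 32.6% of all genes. Without CA_0 or CA_2 the adjusted p of Foxa3 was 0.0517 and 0.0673, and without Chol_CA_2 Foxa1 passed as well (adjusted p = 0.0376). The remaining 5 had adjusted p-values between 0.227 and 0.855.

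Cebpa encodes C/EBP alpha, which drives genes for gluconeogenesis, glycogen storage and the urea cycle. The gene lies at chr7:35119293-35121928 on the plus strand of GRCm38. It stood at 310.2, 315 and 363 CPM in HS_Chol and at 383, 423, 377, 374 and 392 CPM in HS. It stood at 218, 189, 211 and 223 CPM in Chol_CA, at 189.9, 159.7, 161 and 142 CPM in CA, and at 382, 365, 328 and 298 CPM in NC. All 8 libraries of the diets with cholic acid were below all 12 libraries of the diets without it.

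Mean Cebpa was 210.0 ± 15.0 CPM in Chol_CA (SD, n = 4) and 343 ± 37.8 CPM in NC (SD, n = 4). That was a log2 fold change of -0.71 ± 0.12 (SE), with an adjusted p of 0.000117 in edgeR. In CA it was 163 ± 19.7 CPM (SD, n = 4). On the log2 scale CA differed from NC by -1.07 ± 0.12 (SE), with an edgeR adjusted p of 6.33e-06, or 0.476 of the chow level. Both calls held in each of the 30 alternative settings tried, in which the log2 fold change ran from -0.78 to -0.63 for Chol_CA and from -1.21 to -1.01 for CA. In the same fit, Cebpa was lower in CA than in HS at a log2 difference of -1.25 ± 0.11 (SE, adjusted p = 2.67e-07), where 13.2% of all genes were called. It was lower in Chol_CA than in HS_Chol at -0.65 ± 0.12 (SE, adjusted p = 0.00131). Cebpa in HS averaged 389.8 CPM and differed from NC by 0.18 ± 0.11 (SE, adjusted p = 0.556), with a 95% interval of -0.04 to 0.41.

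With cholesterol added to cholic acid, Cebpa was higher in Chol_CA than in CA by 0.36 ± 0.12 on the log2 scale (SE, adjusted p = 0.0293 in edgeR). The groups touched, since Chol_CA_1 at 189 CPM lay just under CA_0 at 189.9 CPM. With cholesterol added to sucrose, all 3 HS_Chol libraries were below all 5 HS libraries, but the difference of -0.24 ± 0.12 (SE) did not pass (adjusted p = 0.395, unadjusted p = 0.0561). The difference between those 2 cholesterol effects, the cholesterol interaction, was 0.61 ± 0.17 (SE, adjusted p = 0.0347 in edgeR). The Chol_CA against CA difference missed the threshold in the fit on those groups alone (adjusted p = 0.133) and without any one of CA_1, CA_2, CA_3, HS_Chol_1, Chol_CA_0 and Chol_CA_3, where its log2 value ran from 0.25 to 0.35 and its adjusted p from 0.0643 to 0.168. Both calls also ended without a filter on low counts (adjusted p = 0.184 for the difference and 0.151 for the interaction), without the genes, other than the 8 members, that have no match in the annotation or overlap an opposite-strand gene, which left 6875 tested (0.0611 and 0.0648), and against a minimum change of 1.2-fold (0.260 and 0.109). The interaction missed it without any one of HS_1, CA_1, CA_2, CA_3, HS_Chol_0, HS_Chol_1, Chol_CA_0 and Chol_CA_3, with log2 values from 0.50 to 0.60 and adjusted p from 0.0509 to 0.128.

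Foxa3 encodes the forkhead factor that is the most abundant FOXA in adult mouse liver, and it lies at chr7:19013284-19023538 on the minus strand. It stood at 33.7, 30.2 and 46.1 CPM in HS_Chol and at 30.6, 35.5, 37.5, 50.5 and 39.0 CPM in HS. It stood at 42.9, 32.7, 27.5 and 38.5 CPM in Chol_CA, at 18.2, 26.0, 18.3 and 22.2 CPM in CA, and at 52.8, 44.7, 43.6 and 23.7 CPM in NC. CA was the low group, and of the other 16 libraries only NC_3 reached into its range.

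Mean Foxa3 was 21.2 ± 3.73 CPM in CA (SD, n = 4) and 41.2 ± 12.4 CPM in NC (SD, n = 4). The log2 difference was -0.96 ± 0.22 (SE), with an edgeR adjusted p of 0.00747. This call held in all 30 alternatives, with values from -1.16 to -0.83. CA was also below HS, at -0.87 ± 0.21 (SE, adjusted p = 0.00801). Against HS_Chol the difference was -0.79 ± 0.24 (SE, adjusted p = 0.0429), in a comparison that called 7.88% of all genes. It missed the threshold without any one of NC_1, NC_2, HS_1, HS_2, CA_0, CA_2, CA_3, HS_Chol_0, HS_Chol_1, HS_Chol_2, Chol_CA_0 and Chol_CA_3 (adjusted p from 0.0516 to 0.241). In Chol_CA, Foxa3 averaged 35.4 ± 6.76 CPM and did not pass against NC (log2 fold change -0.22 ± 0.22, adjusted p = 0.511, 95% interval -0.67 to 0.23). All 4 Chol_CA libraries were above all 4 CA libraries, with a log2 difference of 0.74 ± 0.22 (SE, adjusted p = 0.0202). Foxa3 and Cebpa were 2 of 8 members called higher in that comparison, in which 13.4% of all genes were called higher and 21.2% in either direction. The Foxa3 difference between Chol_CA and CA missed the threshold without any one of CA_2, CA_3, Chol_CA_0 and Chol_CA_3 (adjusted p from 0.0568 to 0.0983), and among the libraries of positive length trend it was 0.56 (adjusted p = 0.0703). The Foxa3 interaction was 0.82 ± 0.32 (SE, adjusted p = 0.137), so Cebpa was 1 of 8 members called there, against 6% of all genes.

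**Figure D2:**
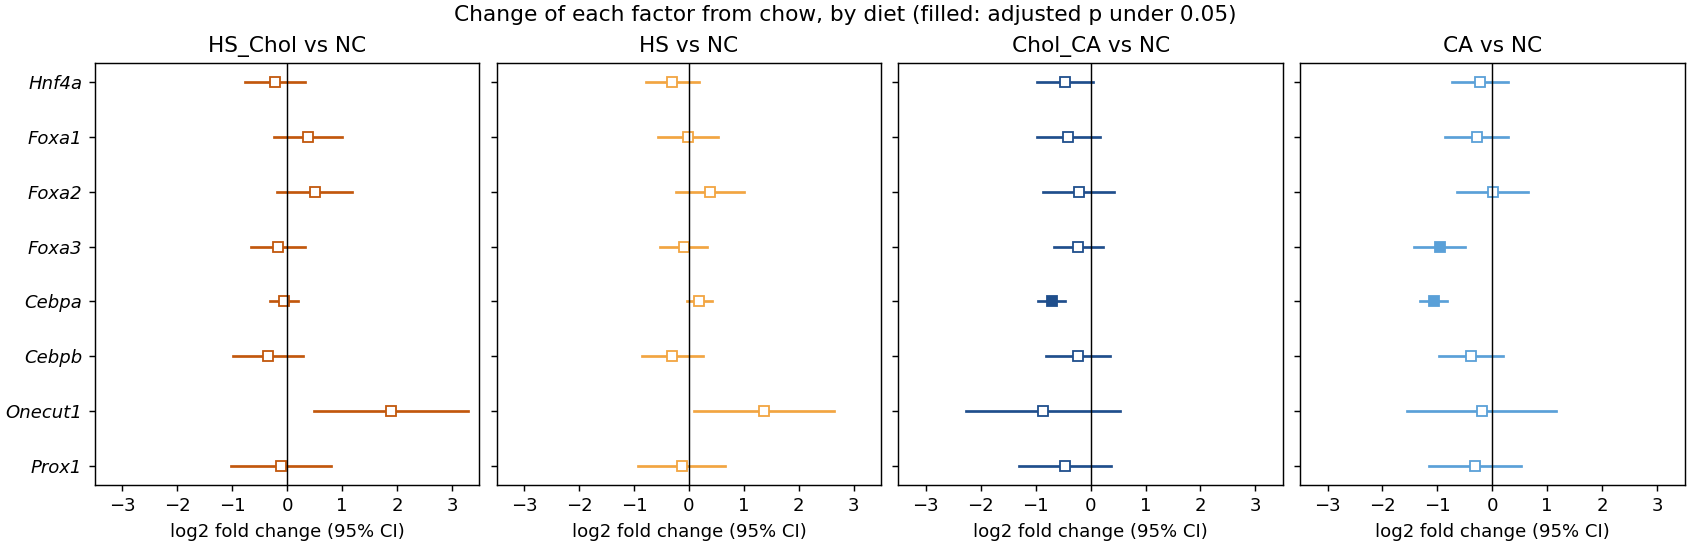
Log2 fold change of each factor against NC for HS_Chol, HS, Chol_CA and CA, with its 95% interval from edgeR; filled squares passed at an adjusted p under 0.05. Cebpa in Chol_CA (-0.71) and CA (-1.07) and Foxa3 in CA (-0.96) are the filled points, and the Onecut1 intervals are the widest.

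Against NC, Cebpa was the 1 of 8 members called in Chol_CA, where 24.3% of all genes were called and 9.35% were called lower. Cebpa and Foxa3 were the 2 of 8 called in CA, against 9.83% of all genes and 4.61% called lower. The median log2 fold change of the 8 members was -0.43 in Chol_CA, with 8 of 8 values negative, and -0.30 in CA, with 7 negative, while the medians over all genes tested were -0.0015 and 0.011. These comparisons share the 4 NC libraries. In HS_Chol the edgeR test called 0 of 8 members, against 2.28% of all genes, and in HS 0 of 8, against 0.651%. DESeq2 also called 0 in each, and Onecut1 was the 1 member at an unadjusted p under 0.05 in each. For HS_Chol against HS, edgeR and DESeq2 called 0 of 8, against 2.25% of all genes in edgeR, and 0 members had an unadjusted p under 0.05 in edgeR.

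Onecut1 encodes a factor that works with HNF4A and FOXA2 at liver promoters and that also marks bile duct cells during their development. The gene lies at chr9:74861921-74891781 on the plus strand. It stood at 4.15, 41.4 and 44.6 CPM in HS_Chol and at 23.1, 4.07, 33.1, 28.3 and 15.6 CPM in HS. It stood at 1.85, 3.09, 8.30 and 4.11 CPM in Chol_CA, at 6.35, 14.5, 5.33 and 2.34 CPM in CA, and at 5.73, 9.14, 6.35 and 11.2 CPM in NC. The sucrose diets held both the high libraries and 1 low library each, HS_Chol_0 and HS_1, so that they overlapped every other diet.

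Mean Onecut1 was 30.1 ± 22.5 CPM in HS_Chol (SD, n = 3) and 20.8 ± 11.4 CPM in HS (SD, n = 5), against 8.11 ± 2.55 CPM in NC (SD, n = 4). The log2 fold changes from NC, 1.89 ± 0.67 for HS_Chol (SE, adjusted p = 0.181 in edgeR) and 1.36 ± 0.61 for HS (SE, adjusted p = 0.407), did not pass. Chol_CA at 4.34 ± 2.80 CPM (SD, n = 4) was below HS_Chol at a log2 difference of -2.76 ± 0.69 (SE, adjusted p = 0.00869), among 16.7% of all genes called in that comparison. Chol_CA was below HS at -2.23 ± 0.64 (SE, adjusted p = 0.0125), among 26% of all genes. Without HS_Chol_2 the value for Chol_CA against HS_Chol was -2.38 (adjusted p = 0.0515), in the fit on those groups alone it was -2.73 (adjusted p = 0.0531), and among libraries of positive length trend the one against HS was -1.83 (adjusted p = 0.122). CA averaged 7.12 ± 5.19 CPM (SD, n = 4); its log2 differences from HS (-1.56 ± 0.61, SE, adjusted p = 0.104) and from HS_Chol (-2.08 ± 0.67, SE, adjusted p = 0.0626) did not pass. They passed, with adjusted p from 0.0123 to 0.0497, without HS_1, CA_1 or HS_Chol_0, and CA against HS_Chol also passed among libraries of positive length trend (-2.57, adjusted p = 0.0202). Ranked by mean, the Onecut1 order was HS_Chol, HS, NC, CA and Chol_CA. Of the neighbours in that order, no pair passed after adjustment, and HS against NC had a 95% interval of 0.09 to 2.64 (unadjusted p = 0.0376).

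Foxa1 and Foxa2 encode the pioneer factors of liver development, and lie at chr12:57540628-57546916 and chr2:148042877-148046969, both on the minus strand. Foxa1 stood at 26.5, 57.1 and 38.2 CPM in HS_Chol, at 34.6, 24.8, 45.2, 23.7 and 27.0 in HS, at 18.9, 14.2, 38.5 and 22.7 in Chol_CA, at 32.2, 26.8, 21.7 and 22.2 in CA, and at 25.3, 30.5, 34.4 and 34.9 in NC. Foxa2 stood at 30.0, 51.8 and 41.8 CPM in HS_Chol, at 52.2, 26.9, 55.1, 28.2 and 28.3 in HS, at 20.1, 25.3, 34.5 and 20.3 in Chol_CA, at 38.2, 33.6, 25.6 and 20.0 in CA, and at 19.3, 22.2, 26.7 and 48.7 in NC. Every diet overlapped NC for both genes, and HS_Chol_1 was the highest library of all 20 for Foxa1. Against NC the log2 fold changes of Foxa1 ran from -0.40 ± 0.28 in Chol_CA (adjusted p = 0.329) to 0.38 ± 0.30 in HS_Chol (SE, adjusted p = 0.735). Those of Foxa2 ran from -0.22 ± 0.31 in Chol_CA (adjusted p = 0.666) to 0.50 ± 0.33 in HS_Chol (SE, adjusted p = 0.648). Foxa1 had a log2 difference of -0.78 ± 0.30 between Chol_CA and HS_Chol that did not pass (SE, adjusted p = 0.0786), and it passed without HS_Chol_0 (adjusted p = 0.0328) or Chol_CA_2 (adjusted p = 0.00928). Among the libraries of positive length trend alone, Foxa2 in HS_Chol (2 libraries) was above NC (3 libraries) by 1.04 ± 0.25 (SE, adjusted p = 0.0362). Among the same libraries CA was below HS_Chol for Foxa1 (-1.02 ± 0.23, adjusted p = 0.00923) and Foxa2 (-0.84 ± 0.24, adjusted p = 0.0344), with 18.1% of all genes called.

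Hnf4a lies at chr2:163506808-163572910 on the plus strand. It stood at 642, 708 and 942 CPM in HS_Chol, at 547, 714, 609, 870.4 and 879 CPM in HS, at 702, 377, 655 and 852 CPM in Chol_CA, at 563, 786, 879 and 833 CPM in CA, and at 1022, 1104, 900.5 and 542 CPM in NC. Prox1, which restrains bile acid and lipid genes as a partner of HNF4A, lies at chr1:190118035-190170714 on the minus strand. It stood at 193, 165 and 248 CPM in HS_Chol, at 101, 203, 112, 262 and 316 in HS, at 165, 58.9, 173 and 235 in Chol_CA, at 141, 205, 192 and 165 in CA, and at 236, 304, 249 and 82.1 in NC. For both genes NC_3 was below the other 3 NC libraries and Chol_CA_1 was the lowest of all 20.

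Neither gene passed in a comparison between diets. The log2 fold changes of Hnf4a from NC were -0.22 ± 0.26 in HS_Chol (adjusted p = 0.865), -0.30 ± 0.23 in HS (adjusted p = 0.651), -0.46 ± 0.24 in Chol_CA (adjusted p = 0.189) and -0.22 ± 0.24 in CA (SE, adjusted p = 0.679). Without NC_3 the Chol_CA value was -0.63 and passed (adjusted p = 0.0484). Among libraries of positive length trend, 2 in Chol_CA and 3 in NC, it was -0.43 ± 0.14 (SE, adjusted p = 0.0402). The log2 fold changes of Prox1 from NC ran from -0.46 ± 0.40 in Chol_CA (adjusted p = 0.454) to -0.11 ± 0.43 in HS_Chol (SE, adjusted p = 0.978). Among libraries of positive length trend, Prox1 in CA (3 libraries) was below HS (2 libraries) at a log2 difference of -0.63 ± 0.18 (SE, adjusted p = 0.0342).

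Cebpb encodes C/EBP beta, an inducible factor of the acute phase response that macrophages express as well, and lies at chr2:167688915-167690418 on the plus strand. It stood at 54.9, 53.0 and 59.7 CPM in HS_Chol, at 76.0, 56.5, 69.6, 37.1 and 48.1 in HS, at 74.4, 95.7, 41.2 and 30.5 in Chol_CA, at 66.8, 42.7, 45.5 and 63.2 in CA, and at 77.0, 68.4, 56.4 and 82.7 in NC. The 4 Chol_CA libraries spanned the full range of all 20. No diet passed against NC: the log2 fold changes lay between -0.38 ± 0.28 in CA (adjusted p = 0.487) and -0.24 ± 0.28 in Chol_CA (SE, adjusted p = 0.596). Among libraries of positive length trend, Cebpb in Chol_CA (2 libraries) was below NC (3 libraries) at a log2 difference of -0.92 ± 0.20 (SE, adjusted p = 0.00604). In that comparison 24.7% of all genes were called.

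The sign of the length trend was taken from the same counts, so lower long genes in libraries of negative trend are partly built in. The p-values for this split therefore describe how members follow the trend and are not independent evidence of it. With diet in the fit, the 8 libraries of negative trend differed from the 12 of positive trend in 3 of 8 members. That is no larger a share than the 46.7% of all genes in edgeR. Hnf4a was lower in libraries of negative trend, at a log2 difference of -0.55 ± 0.11 (SE, adjusted p = 0.000499), with means of 587 CPM in negative and 869 CPM in positive libraries. Prox1, the longest member at 8.39 kb of exon, was lower at -0.83 ± 0.21 (SE, adjusted p = 0.00457), at 132 and 229 CPM. Cebpb, the shortest at 1.504 kb, was higher by 0.59 ± 0.14 (SE, adjusted p = 0.00196), at 72.1 and 51.9 CPM. Cebpa differed by -0.02 ± 0.07 (SE, adjusted p = 0.850). Foxa3 differed by -0.29 ± 0.13 (SE, adjusted p = 0.0811), and Foxa1, Foxa2 and Onecut1 had adjusted p-values from 0.184 to 0.791. With the sign of the length trend as a term in the fit, none of Hnf4a, Prox1 and Cebpb passed in any of 12 tests between diets, and the lowest adjusted p was 0.0971, for Cebpb in Chol_CA against NC (-0.47 ± 0.21, SE).

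**Figure D3:**
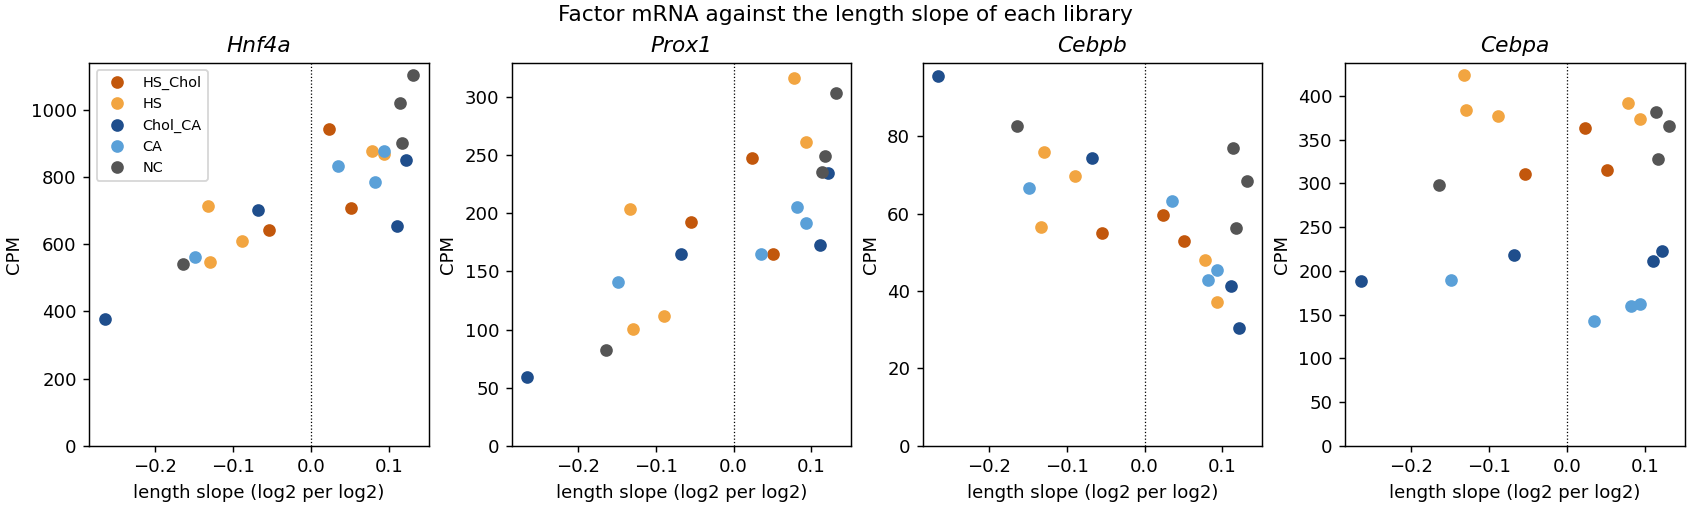
CPM of Hnf4a, Prox1, Cebpb and Cebpa in each of the 20 libraries against the library's length slope (log2 CPM per log2 transcript length), coloured by diet; the dotted line marks a slope of 0. Libraries left of it have lower Hnf4a and Prox1 and higher Cebpb means, while the Cebpa points separate by diet.

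Likeness to other genes was described by the root mean square difference of log2 CPM over the 20 libraries, each gene centred on its own mean, among 8908 genes of at least 5 CPM. The closest to Hnf4a were Anapc1 and Scyl2 (0.121 each), and the closest to Cebpa were Bmp1 (0.147) and Nelf (0.195). Foxa3 was nearest to Rangap1 (0.214) and Stat6 (0.247), Prox1 to Bcor (0.210) and Rreb1 (0.233), and Cebpb to Dynlrb1 (0.258) and Taldo1 (0.259). Foxa2 was the nearest gene to Foxa1 (0.324), followed by Nxt2 (0.327), and Foxa1 ranked second for Foxa2 after Mzt2 (0.323). For Onecut1, E2f8 (0.851) and P2ry1 (0.876) came nearest, and Onecut1 itself had the largest root mean square around its own mean, 1.33. All these values share libraries, depth and the length trend.

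Other transcription factors of the liver were counted from a list of 35. In Chol_CA, 8 of 35 were lower than in NC and 0 higher in edgeR (9 lower and 0 higher in DESeq2; 0 higher at an unadjusted p under 0.05), with a list median of -0.41 on the log2 scale; of all genes, 9.35% were lower and 15% higher. Nr1h4, which encodes FXR, stood at 79.7 ± 16.0 CPM in Chol_CA (SD, n = 4) and 152 ± 6.07 CPM in NC (SD, n = 4), and differed by -0.93 ± 0.15 on the log2 scale (SE, edgeR adjusted p = 0.000122). The stress response factor Atf5 (-0.71 ± 0.15) and Onecut2 (-0.87 ± 0.22), the paralog of Onecut1, also fell in Chol_CA. In CA, 4 of 35 were lower and 2 higher than in NC, against 4.61% and 5.22% of all genes. Nr1h4 (-0.81 ± 0.15) and Nr2f6 (-0.41 ± 0.11), an orphan nuclear receptor, fell, and Nr1i2, which encodes the xenobiotic receptor PXR, rose by 0.84 ± 0.13 (SE). Cux2, a cut homeodomain gene that in mouse liver is typical of females, averaged 18.8 ± 18.8 CPM in CA (SD, n = 4) and 0.765 ± 0.286 CPM in NC (SD, n = 4; log2 fold change 4.60 ± 0.78, SE, adjusted p = 0.000624). In HS_Chol, edgeR and DESeq2 called 0 of 35, with 3 higher and 0 lower at an unadjusted p under 0.05. In HS, edgeR called 0 of 35 and DESeq2 called 1 higher, with 2 higher and 4 lower at an unadjusted p under 0.05 in edgeR.

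**Figure D4:**
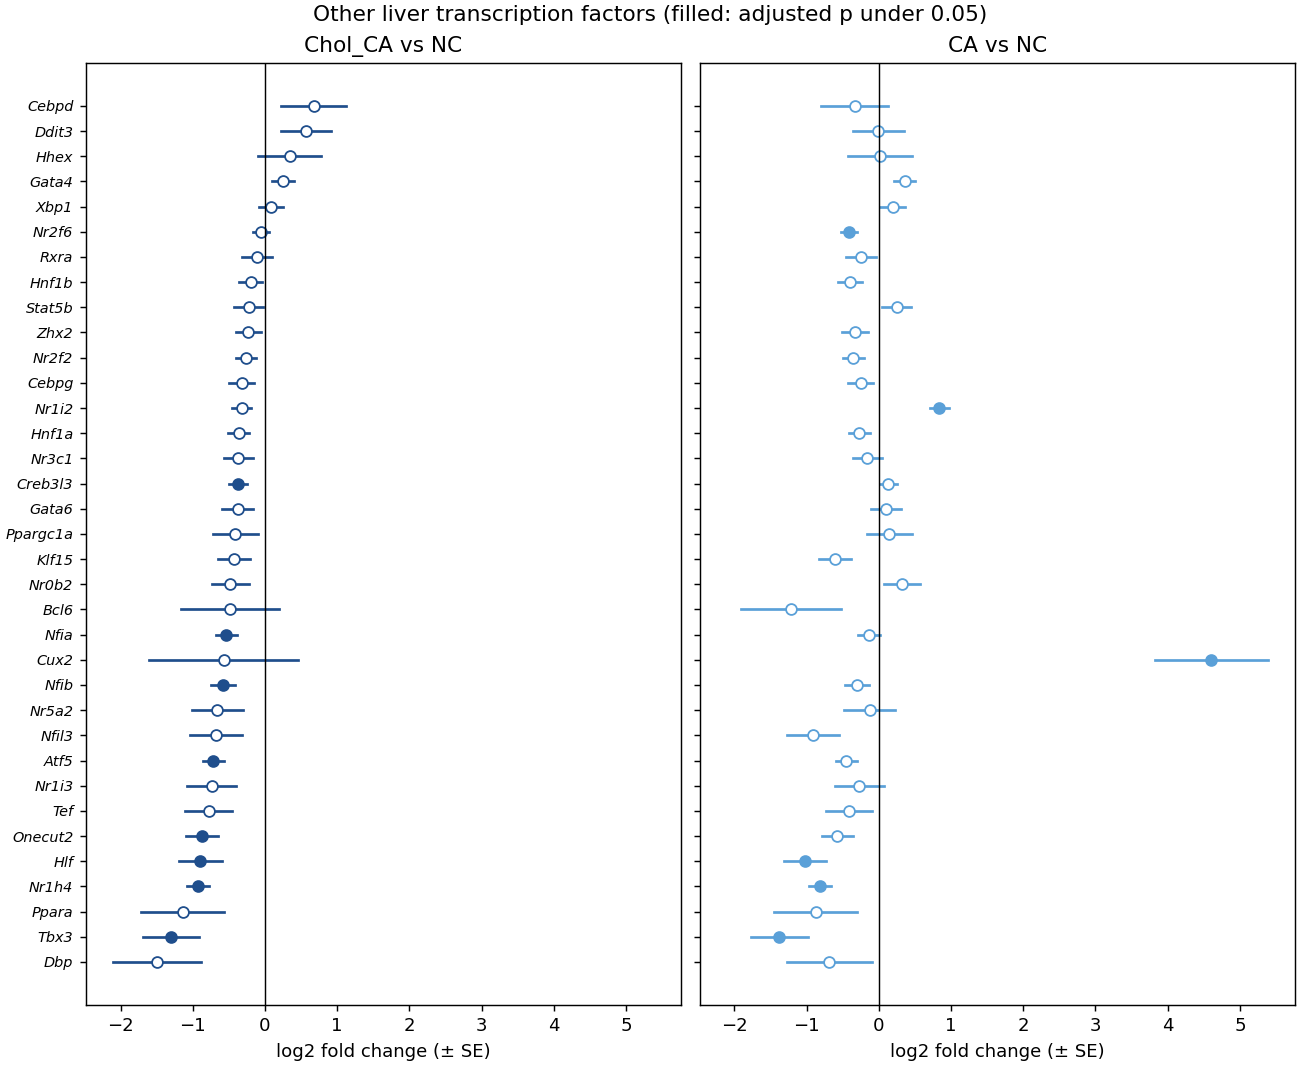
Log2 fold change (± SE) of 35 other liver transcription factors in Chol_CA against NC (left) and CA against NC (right); filled points passed at an adjusted p under 0.05 in edgeR. In Chol_CA the 8 filled points all lie below 0, and in CA 4 lie below and 2, Nr1i2 (0.84) and Cux2 (4.60), above.

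Known target genes of the members were counted as well, from short lists that share genes with each other. Because earlier results were known when the lists were chosen, the counts describe these genes and are not independent evidence. Of 10 genes driven by C/EBP proteins, 8 were lower in Chol_CA and 3 in CA than in NC, where 9.35% and 4.61% of all genes were lower. The shares of all genes called higher were 15% in Chol_CA and 5.22% in CA. The 3 C/EBP targets lower in CA were Tat, for tyrosine breakdown (-1.51 ± 0.28), the liver glycogen synthase gene Gys2 (-0.74 ± 0.16) and the glucose-6-phosphatase gene G6pc (-1.87 ± 0.52, SE). Gys2 averaged 119 ± 15.1 CPM in Chol_CA, 129 ± 9.51 CPM in CA and 215 ± 25.3 CPM in NC (SD, n = 4 each). Of 20 HNF4A targets, 11 were lower and 1 higher in Chol_CA, and 7 were lower in CA. Hnf4a itself did not pass against NC in Chol_CA (adjusted p = 0.189 in edgeR) or in CA (adjusted p = 0.679). The part of HNF4A in these counts was not tested. Cyp8b1, which directs bile acid synthesis to cholic acid, fell to 7.85 ± 3.48 CPM in Chol_CA and 1.40 ± 0.603 CPM in CA, against 621 ± 151 CPM in NC (SD, n = 4 each). The bile acid carrier gene Slc10a1 (-1.55 ± 0.22) and the fatty acid binding protein gene Fabp1 (-1.70 ± 0.24, SE) also fell in Chol_CA, and Apoc2 rose (0.89 ± 0.26, SE). Of 9 FOXA targets, 6 were lower in Chol_CA, and in CA 3 were lower and Afp was higher (1.70 ± 0.48, SE) at 1.49 ± 0.355 CPM against 0.446 ± 0.306 CPM in NC. In HS_Chol, Ass1, a urea cycle gene of the C/EBP list, was the 1 gene of these lists called in edgeR (-0.88 ± 0.21, SE, adjusted p = 0.0228), and 5 of 10 C/EBP and 5 of 9 FOXA targets were lower, with 1 HNF4A target higher and 1 lower, at an unadjusted p under 0.05. DESeq2 called 4 of the C/EBP list and 2 FOXA targets lower in HS_Chol. In HS, edgeR called 0 genes of the 3 lists, with 4 HNF4A targets higher and 2 lower, 1 FOXA target higher and 3 lower, and 2 C/EBP targets lower at an unadjusted p under 0.05. DESeq2 called 1 HNF4A target higher and 1 lower and 1 FOXA target lower in HS.

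Markers of other cell types moved with the diets. The 19 macrophage markers summed to 329 to 813 CPM in HS_Chol, 213 to 446 in HS, 1465 to 4881 in Chol_CA, 357 to 1060 in CA and 156 to 256 in NC. Of these 19, 19 were higher in Chol_CA, 13 in CA and 4 in HS_Chol than in NC. Of all genes tested, 15% were higher in Chol_CA, 5.22% in CA and 1.71% in HS_Chol than in NC. The 8 defining hepatocyte markers had 2 members lower in Chol_CA, Alb (-1.16 ± 0.16) and Ttr (-0.79 ± 0.26), and 1 lower in CA, Serpina1a (-0.70 ± 0.20, SE). Of all genes, 9.35% were lower in Chol_CA and 4.61% in CA. The 4 neutrophil markers tested, which summed to 10.5 to 65.8 CPM in Chol_CA and 0.286 to 2.13 CPM in NC over the 7 on the list, were all called higher in Chol_CA. Cholangiocyte markers summed to 102 to 103 CPM in HS_Chol, 105 to 169 in HS, 169 to 401 in Chol_CA, 129 to 195 in CA and 96.1 to 148 in NC, and 4 of 9 tested were higher in Chol_CA and 1 in CA than in NC. Most of the Chol_CA sum was Spp1. It averaged 236 ± 109 CPM in Chol_CA and 59.7 ± 21.8 CPM in NC (SD, n = 4 each), where the mean sums were 315 and 128 CPM. The sum therefore mainly follows 1 gene. Stellate cell and matrix markers summed to 240 to 330.2 CPM in HS_Chol, 209 to 346 in HS, 409.6 to 811 in Chol_CA, 142 to 291 in CA and 171 to 402 in NC; 6 of 10 were higher in Chol_CA and 1 lower in CA than in NC. Sinusoidal endothelial markers summed to 241 to 382 CPM in HS_Chol, 232 to 361 in HS, 163 to 430.3 in Chol_CA, 269.5 to 324 in CA and 176 to 335 in NC; 4 of 9 were higher in Chol_CA and 1 in CA than in NC. Lymphatic endothelial markers, of which Prox1 is itself one in other tissues, summed to 33.0 to 66.0 CPM in HS_Chol, 25.3 to 61.1 in HS, 15.1 to 75.4 in Chol_CA, 38.3 to 50.0 in CA and 20.9 to 55.0 in NC, and 1 of 2 tested was higher in Chol_CA. The marker called is also on the sinusoidal endothelial list and is already counted among the 4 there. Cebpa is also expressed in myeloid cells. Between Chol_CA and CA, where Cebpa and Foxa3 were called, 15 of 19 macrophage, 4 of 4 neutrophil, 10 of 10 stellate and 2 of 9 cholangiocyte markers tested were higher in Chol_CA, and 1 cholangiocyte marker and 1 of 8 defining hepatocyte markers were lower. Of all genes, 13.4% were higher in that comparison and 21.2% were called in either direction. The part of cell composition in the Cebpa and Foxa3 results was not tested.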

How the data were processed

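RNA of whole mouse liver was sequenced from TruSeq stranded total RNA libraries with single-end 50 bp reads, per the labels' protocols. The authors deposited a table of raw read counts per gene symbol; reads were aligned to mm10 and counted with STAR 2.6.1c, per the submitters' processing notes. The strand counted and the joining of gene models are not given in the sources used here. Of 23 columns, 20 matched a diet; 3 matched no label and were not used. Samples on all 3 of sucrose, cholesterol and cholic acid were not analysed here. Columns are numbered from 0 and labels from 1, so columns were matched to diets, not to single samples; HS_Chol had 3 columns for 4 labelled samples.

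The test was the robust quasi-likelihood F test of edgeR 4.0.16 (R 4.3.3) after filterByExpr and TMM scaling, with 1 mean per diet over 20 libraries and 12595 genes. A gene was called where its p, adjusted by Benjamini-Hochberg over all of them, was under 0.05; the procedure was tested on simulated data. DESeq2 1.42.0, other filters and left-out libraries were alternatives. Errors are SE of log2 values or SD between libraries, and 95% intervals come from the fit. Intervals cover the spread between these samples. GENCODE M21 (GRCm38) gave coordinates and exon lengths; 29015 symbols matched by name and 1876 by an older name, and 3545 did not match (0.450% of reads). The members and lists were chosen with earlier results of these data known. Named genes were the 8 members, up to 3 called genes per direction, list and comparison with the smallest adjusted p, and the 2 genes most like each member. A gene that this rule would name is not reported here.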

Additional observations from a re-analysis of the deposited data

Results flagged for a closer look

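The cholesterol effect on Cebpa differed between the diets with cholic acid and with sucrose by 0.61 ± 0.17 on the log2 scale (SE, adjusted p = 0.0347 in edgeR, interaction term), since Cebpa was higher in Chol_CA than in CA (0.36, which passed in 19 of 30 alternatives) and the difference of HS_Chol from HS was -0.24, which did not pass (adjusted p = 0.395, 95% interval -0.49 to 0.01). Over 29 alternatives the difference ran from 0.50 to 0.69 with adjusted p from 0.00208 to 0.151, and it passed in 18 of them. The interaction uses the HS_Chol libraries, whose light-strand tRNA reads stood apart, and the part of that difference was not tested. In none of the 32 groups of 4 or 5 libraries, 4 diets for each of 8 members, did a single library lie far from the others by Dixon's criterion, which flags about 1 group in 20 by chance. With 4 or 5 libraries per group the criterion has little power, and the low NC_3 values of Hnf4a and Prox1 were not flagged.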

How the results depend on the processing

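No paired analysis was possible because the columns of the table are numbered from 0 and could not be matched to the numbered samples. Of 2600 log2 values of members under alternatives, 101 changed sign, and 0 of these were called in either setting. The calls of Cebpa in Chol_CA and CA and of Foxa3 in CA against NC held in all 30 alternatives. Among libraries of positive length trend, 1 member was called in HS_Chol against NC (4.97% of all genes), 3 in Chol_CA against NC (24.7%), 1 in Chol_CA against CA (27.7%) and 6 for any diet difference (40.5%); Foxa1, Foxa2 and Onecut1 gained calls in CA against HS_Chol. Between Chol_CA and CA, 1 member was called without a filter on low counts (11% of all genes), in the fit on those groups alone (13.2%), without non-member genes that have no match in the annotation or overlap an opposite-strand gene (23.9%), or without the HS_Chol libraries in the fit (20%, chosen after seeing the data), and 0 against a minimum change of 1.2-fold (14.6%). For the interaction, 0 members were called without the filter (3%), without overlapping or unmatched genes (5.86%) or against the minimum change (3.96%), and 2 with the sign of the length trend as a term (7.48%), where Foxa3 was 0.97 (adjusted p = 0.0425). Leaving out 1 library at a time gave between 1 and 2 members in Chol_CA against NC (19.1% to 27.3% of all genes), between 0 and 2 in Chol_CA against CA (13.4% to 25.7%), and between 0 and 1 for the interaction (3.57% to 10.5%). Apart from the minimum change, the filters and the sets of libraries, the cause was not tested. Depth limits Onecut1 most, with 14 reads in its lowest library.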

Other observations

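Acute phase genes, many of them driven by C/EBP beta and STAT3, differed between the diets with cholic acid. Of 21 on the list, 10 were higher and 0 lower in Chol_CA than in CA, where 13.4% of all genes were higher. Against NC, 11 were higher in Chol_CA, and in CA 3 were higher and 1 lower. Of all genes, 15% were higher in Chol_CA, and in CA 5.22% were higher and 4.61% lower. Lcn2, an iron-siderophore binding protein gene, averaged 392 ± 404 CPM in Chol_CA (SD, n = 4) and 3.07 ± 1.11 CPM in NC (SD, n = 4; log2 fold change 6.99 ± 0.90, SE, adjusted p = 1.07e-05 in edgeR). Saa3 averaged 148 ± 176 CPM in Chol_CA and 1.92 ± 0.604 CPM in NC (SD, n = 4 each), so both varied widely between Chol_CA libraries. Lbp, which binds bacterial lipopolysaccharide, was higher in CA than in NC by 0.99 ± 0.17 (SE, adjusted p = 0.000811), and Crp was lower, at -0.54 ± 0.13 (SE, adjusted p = 0.0107). In the cholesterol interaction 3 of the 21 were higher, with Orm1 at 1.59 ± 0.35 (SE, adjusted p = 0.00865). Of all genes, 6% were called there in either direction.

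Of 14 genes of the ATF4 and endoplasmic reticulum stress responses, 3 were lower in Chol_CA than in NC, and in CA 2 were higher and 1 lower. The shares of all genes were 9.35% lower in Chol_CA, and 5.22% higher and 4.61% lower in CA. Fgf21, a stress hormone of the liver, averaged 53.8 ± 61.8 CPM in CA (SD, n = 4), 1.53 ± 0.644 CPM in Chol_CA (SD, n = 4) and 11.4 ± 6.67 CPM in NC (SD, n = 4). Of 25 genes for hepatocyte products, 9 were lower and 1 higher in Chol_CA than in NC, against 9.35% and 15% of all genes. The one higher was Hpx, which binds heme, at 7605 ± 2840 CPM in Chol_CA and 2682 ± 234 CPM in NC (SD, n = 4 each). Of 9 fetal liver genes only 3 passed the filter on low counts.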
